A study of Mus musculus with 9 samples.

Results

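The genes of cholesterol and fatty acid synthesis were followed in adult mouse auditory nerve through dissociation, culture and sphere formation. The list held 34 genes named for their place in these pathways and in their control. Each gene was read through 1 probe set, the brightest on average of those annotated to that gene alone. Of the 34, 33 were measured this way, among 18193 genes in all, and Acat2 was not analysed here. Each group held 3 arrays (Affymetrix GeneChip, mouse genome), and values were deposited as log2 of the RMA expression value, so that a difference of 1 is a doubling. Neurospheres were grown for 12 days in serum-free medium with epidermal growth factor at 20 ng/ml, fibroblast growth factor at 10 ng/ml and heparin at 2 µg/ml, starting from cultured nerve cells. Cultured cells were auditory nerve dissociated with trypsin and grown to confluency over 5 to 7 days with 10% serum and B27 supplement. Tissue was auditory nerve with no treatment. All 3 groups came from CBA/CaJ mice of both sexes aged 8 to 12 weeks, with no transgene or drug in any group. The labels do not say whether arrays of the same group stand for different animals or dishes, so the p-values measure only the spread between these arrays, which may be technical.

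Cells build cholesterol from acetyl-CoA through mevalonate, isoprenoids and squalene, which is closed into a sterol ring and then trimmed and reduced. Fatty acids are built from the same acetyl-CoA by acetyl-CoA carboxylase and fatty acid synthase, then lengthened by elongases and given double bonds by desaturases. Most of these enzymes are transcribed under the sterol regulatory element binding proteins, membrane-bound factors that the escort protein SCAP carries to the Golgi for release when membrane sterol is low and that the INSIG proteins hold back when it is high. In peripheral nerve, Schwann cells make much of the cholesterol and fatty acid of the myelin sheath themselves.

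The cell make-up of the groups differed widely. All 5 measured markers of myelinating glia and all 7 neuronal markers passed as lower in neurospheres and in cultured cells than in tissue. The summed level of the glial list, as the mean of its log2 values, ranged over 7.28 to 7.46 in neurospheres, 7.58 to 7.92 in cultured cells and 12.16 to 12.28 in tissue. Mbp, the myelin basic protein gene, averaged 7.67 in neurospheres, 8.48 in cultured cells and 13.96 in tissue. The 4 measured markers of dividing cells ranged over 9.21 to 9.72, 11.14 to 11.28 and 4.18 to 4.39 in the same 3 groups. Against tissue, 5 of 6 macrophage markers and 3 of 4 endothelial markers fell in each culture, and the endothelial marker Cdh5 rose in neurospheres (0.84). Of 6 fibroblast markers, 5 rose in neurospheres against tissue, while 3 rose and 1 fell in cultured cells. The fibroblast list ranged over 12.25 to 12.36 in neurospheres, 12.01 to 12.28 in cultured cells and 10.92 to 11.31 in tissue, and the macrophage list over 5.27 to 5.84, 5.56 to 5.96 and 7.88 to 8.17. Of 5 measured adipocyte markers, 2 rose in neurospheres (40%) and 1 in cultured cells (20%). Fabp4, a fatty acid carrier, was higher than tissue by 3.04 in neurospheres and 2.83 in cultured cells. Adipoq, which rose in neurospheres, averaged 4.43 there and 3.42 in tissue, under the array medians of 6.15 to 6.27, and Cidec, Lep and Retn did not pass. Of all genes tested, 21.7% rose and 21% fell in neurospheres against tissue, and 20.4% and 22% in cultured cells. RNA integrity also moved with the groups: the 3′ probe set of actin exceeded the 5′ one by 0.70 ± 0.15 in neurospheres, 0.36 ± 0.04 in cultured cells and 2.71 ± 0.35 in tissue (SD, n = 3 each). The part of any of these in the differences below was not tested, and in bulk RNA fewer cells of a type cannot be told apart from less RNA per cell.

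The start of a gene is where the sterol regulatory proteins act, together with the factor NF-Y, which binds the box CCAAT. RefSeq promoter windows (build GRCm38.p6, 250 bases before to 50 after the start site) were matched to 25 of the 34 genes. On either strand, CCAAT was found in 20 of these 25 genes (80.0%) and in all 14 sterol enzymes with a window, against 42.0% of the 14452 tested genes with one. The Sp1 box GGGCGG was found in 84.0% of the genes on the list and 57.3% of tested genes, and the E-box CACGTG in 6 of the 25 and 10.2%. The sterol element core TCACNCCAC was found in Hmgcs1 alone, at position -137 from the start site, and in 1.46% of tested genes. The looser form TCACNCNAC, which includes the core, was also in Nsdhl and in 3.29% of tested genes. These matches are a description of letters and not of binding, and a window without a match says nothing about the factor. The lines that follow give the 250 bases before the start site of 4 genes that hold the NF-Y box and of 1 that does not, chosen after the values were seen. Hmgcs1 carries the sterol element core, Cyp51 and Hsd17b7 are sterol enzymes that were higher in both cultures, and Srebf2 encodes the sterol-regulated factor itself. Elovl6 is a fatty acid elongase that was higher in neurospheres than in both other groups on its brightest probe set. Capitals mark CCAAT (or its reverse ATTGG) and, in Hmgcs1, the core TCACCCCAC.
Hmgcs1 (chr13:119690101-119690350, plus strand): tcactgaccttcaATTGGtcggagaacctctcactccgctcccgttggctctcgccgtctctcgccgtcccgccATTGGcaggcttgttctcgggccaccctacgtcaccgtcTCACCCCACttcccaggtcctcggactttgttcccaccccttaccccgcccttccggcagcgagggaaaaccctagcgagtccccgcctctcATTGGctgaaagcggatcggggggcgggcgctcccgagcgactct
Cyp51 (chr5:4104698-4104947, minus strand): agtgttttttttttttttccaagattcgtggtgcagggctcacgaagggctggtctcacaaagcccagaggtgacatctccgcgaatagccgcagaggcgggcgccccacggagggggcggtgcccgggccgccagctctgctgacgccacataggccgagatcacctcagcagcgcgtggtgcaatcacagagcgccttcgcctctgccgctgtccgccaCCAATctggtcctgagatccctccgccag
Hsd17b7 (chr1:169969206-169969455, minus strand): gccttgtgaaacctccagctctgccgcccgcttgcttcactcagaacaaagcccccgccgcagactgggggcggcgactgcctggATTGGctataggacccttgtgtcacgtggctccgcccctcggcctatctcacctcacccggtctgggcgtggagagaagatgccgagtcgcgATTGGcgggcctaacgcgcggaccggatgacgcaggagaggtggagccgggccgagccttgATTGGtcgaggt
Srebf2 (chr15:82147019-82147268, plus strand): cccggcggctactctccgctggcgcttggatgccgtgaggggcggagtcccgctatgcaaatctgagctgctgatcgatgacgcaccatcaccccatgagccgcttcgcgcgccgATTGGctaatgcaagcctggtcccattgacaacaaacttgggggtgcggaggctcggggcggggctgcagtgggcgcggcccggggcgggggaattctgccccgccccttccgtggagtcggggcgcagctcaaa
Elovl6 (chr3:129532136-129532385, plus strand): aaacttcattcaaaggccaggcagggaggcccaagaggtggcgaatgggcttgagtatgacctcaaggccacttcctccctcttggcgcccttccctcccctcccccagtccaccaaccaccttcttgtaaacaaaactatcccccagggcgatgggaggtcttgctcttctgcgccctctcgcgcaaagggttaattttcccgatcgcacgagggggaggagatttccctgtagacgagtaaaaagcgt

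Sterol enzymes were 17 of the 33 measured genes, with 9 of the 16 rises in neurospheres and 10 of the 15 in cultured cells against tissue. These were 52.9% and 58.8% of the 17 enzymes, beside 21.7% and 20.4% of all genes tested. Of the 8 fatty acid enzymes, 2 rose in each culture, or 25%, near the share of all genes. A gene passed when its Benjamini-Hochberg adjusted p from limma was under 0.05 and its fold change over 1.5. In neurospheres against tissue, 16 of the 33 genes rose, or 48.5%, beside 21.7% of all genes tested, and 3 fell, beside 21%. In cultured cells against tissue, 15 rose, or 45.5%, beside 20.4% of all genes, and 1 fell, beside 22%. The tissue arrays are shared by these comparisons. The list was bright, with mean levels of 9.47 to 9.59 in tissue, where the array medians were 6.26 to 6.27. With the dimmest 40% of genes left out, 5941 genes passed in neurospheres and 5950 in cultured cells, beside 7762 and 7718 over all genes. Brighter genes thus passed more often, and the list was not set beside genes of like brightness. In neurospheres against cultured cells, 3 rose, beside 9% of all genes, and 3 fell, beside 8.91%, so that both shares lay near the background. The median log2 change of the 33 genes was 0.61 in neurospheres against tissue, where the median of all genes was 0.05, 0.41 in cultured cells against tissue, where the median of all genes was -0.01, and 0.03 in neurospheres against cultured cells, where the median of all genes was 0.05. Of the genes that rose against tissue, 12 did so in both cultures: Mvd, Fdps, Sqle, Lss, Cyp51, Hsd17b7, Ebp, Sc5d, Srebf2, Stard4, Abca1 and Fads2. In at least 1 of these comparisons, Fdps, Lss, Hsd17b7, Sc5d, Srebf2 and Fads2 each had another probe set that did not pass as higher. Sqle and Ebp had only 1 probe set. Passing in 1 comparison and not in another is no test of a difference between them, which the direct comparison of the 2 cultures gives.

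**Figure D1:**
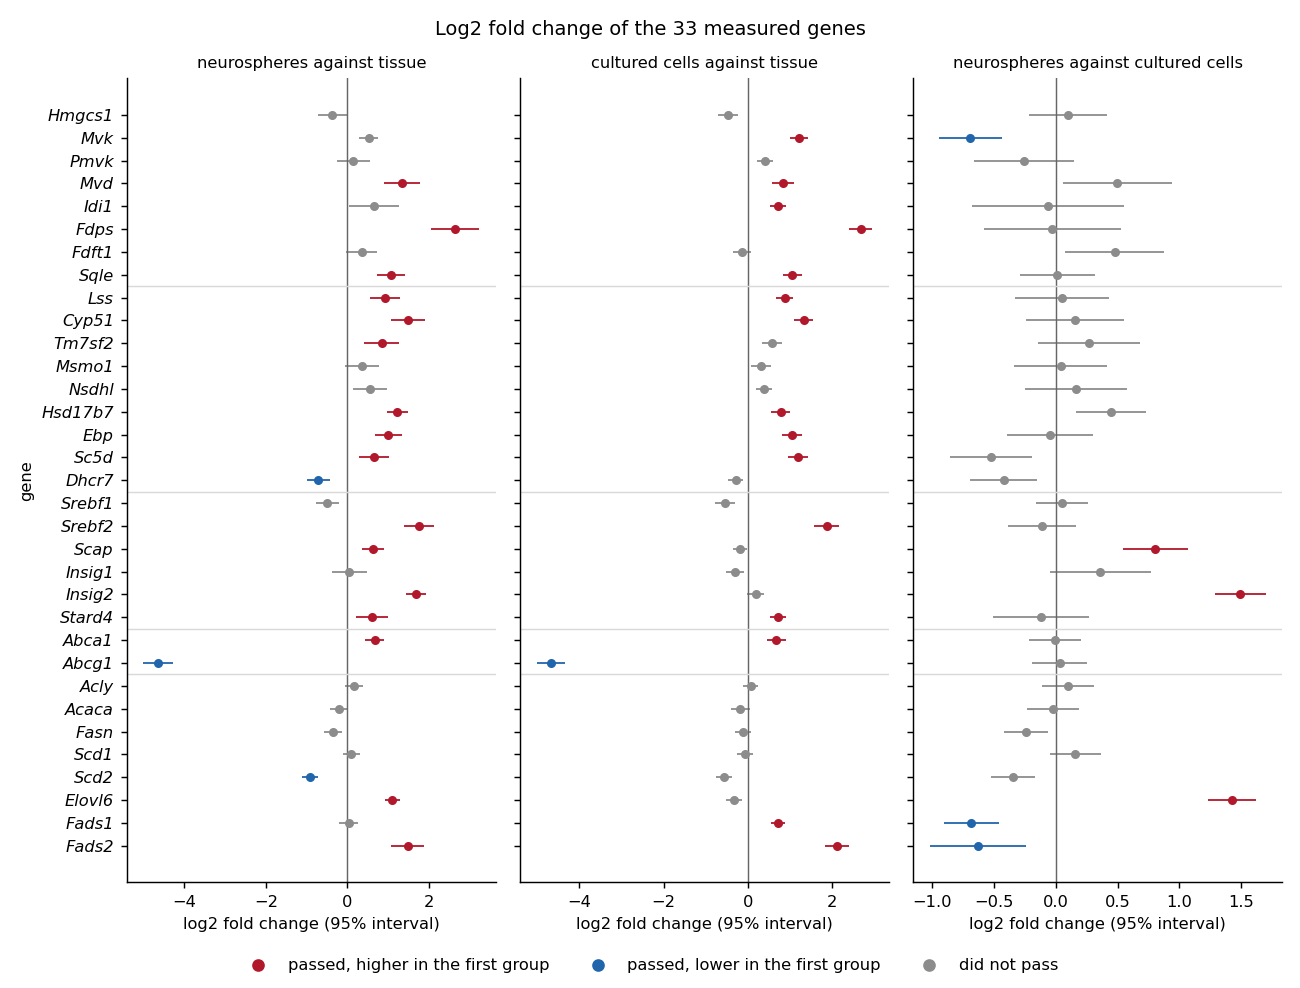
Log2 fold change of each of the 33 measured genes with its 95% interval, in 3 panels, the first for neurospheres against tissue, the second for cultured cells against tissue and the third between the cultures (each panel has its own horizontal scale). Red points passed as higher and blue points as lower in the first-named group, grey points did not pass, and grey lines part the mevalonate and squalene enzymes, the later sterol enzymes, the regulators with Stard4, the exporters and the fatty acid enzymes. In the tissue comparisons Fdps lies farthest to the right and Abcg1 farthest to the left.

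Among the 8 enzymes that lead up to and include squalene epoxidation, 3 rose in neurospheres and 5 in cultured cells against tissue, and the others did not pass. The rises were 37.5% and 62.5% of the 8, beside 21.7% and 20.4% of all genes tested. Fdps, which makes the farnesyl diphosphate that feeds sterols and protein prenylation, had the largest rise of the list in both. Its log2 values were 10.73, 9.67 and 9.88 in neurospheres, 10.21, 10.12 and 10.05 in cultured cells, and 7.19, 7.69 and 7.45 in tissue. Every array of both cultures lay above every tissue array, by a mean difference of 2.65 ± 0.26 (SE) in neurospheres (6.27-fold, adjusted p = 2.29e-05) and 2.68 ± 0.13 in cultured cells (6.40-fold, adjusted p = 5.33e-08). Sqle, the squalene epoxidase and a rate-limiting step, had values of 10.99, 10.46 and 10.73 in neurospheres, 10.75, 10.69 and 10.72 in cultured cells, and 9.49, 9.65 and 9.82 in tissue. Sqle passed against tissue in neurospheres (1.07 ± 0.15 SE, adjusted p = 0.000214) and in cultured cells (1.06 ± 0.10 SE, adjusted p = 7.83e-06), with no overlap of either group with tissue. Mvd, which decarboxylates mevalonate diphosphate, was higher in neurospheres by 1.34 and in cultured cells by 0.84.

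Mvk, the mevalonate kinase, separated the 2 cultures. Its values were 7.92, 7.64 and 7.72 in neurospheres, 8.59, 8.47 and 8.30 in cultured cells, and 7.18, 7.21 and 7.32 in tissue. The 3 groups did not overlap, and neurospheres stood between the others. Mvk was lower in neurospheres than in cultured cells by a log2 difference of -0.69 ± 0.11 (SE, adjusted p = 0.00164), and it passed in cultured cells against tissue (1.21 ± 0.10 SE, adjusted p = 2.66e-06) but not in neurospheres against tissue, where the change of 0.52 was under the fold threshold. In neurospheres against tissue it passed on its second probe set (1.25), with the mean of probe sets (0.89) and after quantile normalization (0.68), and its call between the cultures was lost on the second probe set (-0.44). Idi1, the isomerase that makes dimethylallyl diphosphate, rose in cultured cells against tissue on its brighter probe set (0.72, adjusted p = 5.7e-05). Its other probe set gave 0.03 there and did not pass, and the mean of probe sets gave 0.375, under the fold threshold. In neurospheres against tissue the mean Idi1 difference of 0.65 had an adjusted p of 0.063, and without neurosphere array 2 Idi1 passed at 1.01 (adjusted p = 0.000359).

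Hmgcs1, the synthase that commits acetoacetyl-CoA to mevalonate and whose promoter holds the sterol element core, did not pass on its brightest probe set, which is marked as shared with other transcripts. Its values were 12.20, 11.71 and 12.18 in neurospheres, 11.85, 11.93 and 12.01 in cultured cells, and 12.19, 12.52 and 12.50 in tissue. The neurosphere arrays overlapped tissue, and the cultured arrays all lay below it. The difference was -0.37 (95% interval -0.72 to -0.02, adjusted p = 0.0645) in neurospheres and -0.47 (-0.71 to -0.23, adjusted p = 0.00358) in cultured cells, and the fold change was under the threshold in both. Other Hmgcs1 probe sets passed against tissue in both directions, so that its direction depended on the probe set. Pmvk passed in no comparison, with differences against tissue of 0.15 in neurospheres and 0.41 in cultured cells. Fdft1, the squalene synthase, did not pass on its brightest probe set (0.35 in neurospheres and -0.13 in cultured cells against tissue), which is marked as shared, but an unshared one passed as higher in neurospheres against tissue (0.85, adjusted p = 0.00184). Without neurosphere array 2 Fdft1 also passed as higher in neurospheres than in cultured cells (0.62, adjusted p = 0.0265).

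**Figure D2:**
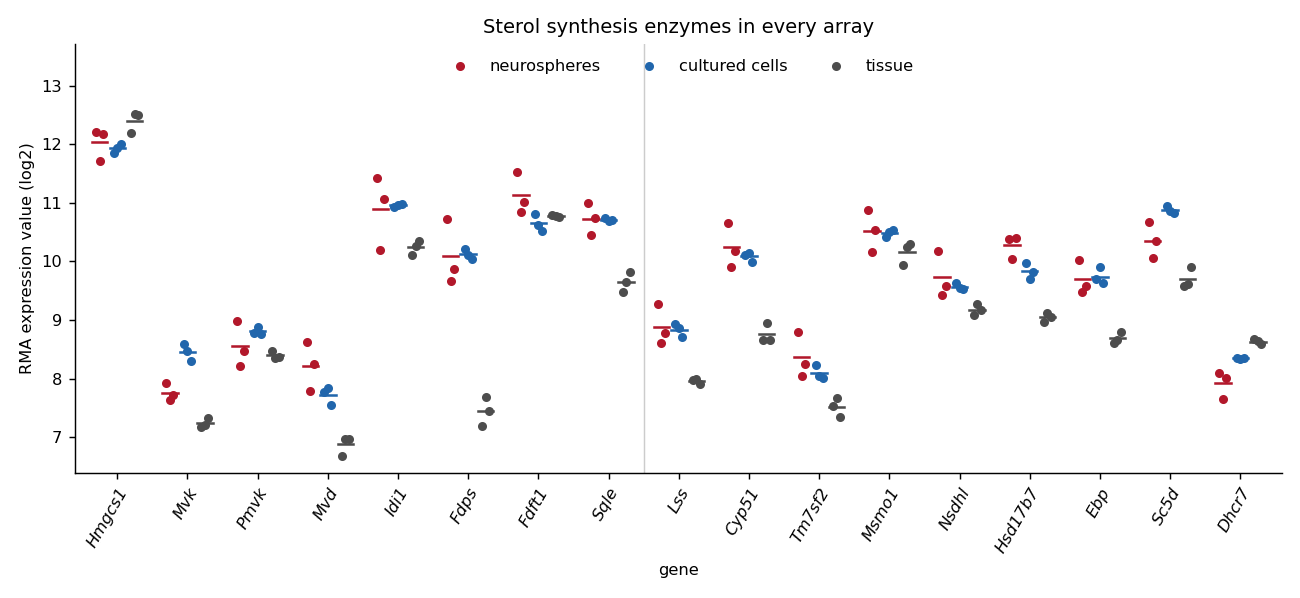
RMA expression value (log2) of the 17 sterol synthesis enzymes in each array, with neurospheres in red, cultured cells in blue and tissue in grey. Each point is 1 array and each short line the group mean, and the vertical line parts the enzymes up to squalene epoxidase from the later ones. Fdps, Sqle, Lss, Cyp51, Hsd17b7 and Ebp show both cultures clear of tissue, while Hmgcs1 and Dhcr7 have their highest mean in tissue.

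Of the 9 enzymes that follow squalene epoxide, 6 rose and 1 fell in neurospheres, and 5 rose in cultured cells, against tissue. In neurospheres these were 66.7% and 11.1% of the 9, beside 21.7% and 21% of all genes tested. In cultured cells the rises were 55.6%, beside 20.4%. Both counts of rises include Lss and Sc5d, whose probe sets disagreed. Cyp51, the lanosterol demethylase, had values of 10.65, 9.90 and 10.18 in neurospheres, 10.12, 10.14 and 9.99 in cultured cells, and 8.66, 8.95 and 8.66 in tissue. Neither culture overlapped tissue, and the rise was 1.49 ± 0.18 (SE, adjusted p = 0.000101) in neurospheres and 1.33 ± 0.10 (SE, adjusted p = 2.01e-06) in cultured cells. All 3 Cyp51 probe sets passed as higher in both comparisons. Hsd17b7, a sterol ketone reductase, rose by 1.23 in neurospheres and 0.78 in cultured cells. Ebp, the sterol isomerase, rose by 1.0 in neurospheres and 1.05 in cultured cells. Tm7sf2, a sterol C14 reductase, passed in neurospheres against tissue (0.85, adjusted p = 0.00367), and in cultured cells its rise of 0.58 (1.49-fold, adjusted p = 0.00104) fell just short of the fold threshold. Msmo1 and Nsdhl, which act in removing the methyl groups at carbon 4, passed in no comparison over all arrays, with differences from 0.32 to 0.55 against tissue. Nsdhl passed as higher in neurospheres than in tissue without tissue array 2 (0.60), neurosphere array 2 (0.70) or neurosphere array 3 (0.63).

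Lss closes squalene epoxide into lanosterol. Its values were 9.27, 8.61 and 8.77 in neurospheres, 8.93, 8.87 and 8.70 in cultured cells, and 7.98, 7.99 and 7.91 in tissue. The cultures did not overlap tissue on this probe set (0.93 in neurospheres and 0.88 in cultured cells), which is marked as shared with other transcripts, while an unshared probe set gave 0.08 in neurospheres, which did not pass, and passed the opposite way in cultured cells (-0.82). Sc5d, the sterol desaturase, had values of 10.67, 10.06 and 10.34 in neurospheres, 10.95, 10.87 and 10.84 in cultured cells, and 9.58, 9.61 and 9.91 in tissue. It passed as higher in neurospheres (0.66, adjusted p = 0.00642) and in cultured cells (1.19, adjusted p = 5.06e-06) on this probe set, and another passed as lower, so that the direction of Sc5d was not settled. Without neurosphere array 1 the Sc5d rise in neurospheres was 0.50 and under the fold threshold.

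Dhcr7, which carries out a final reduction to cholesterol, was the sterol enzyme that fell. Its values were 8.10, 7.66 and 8.02 in neurospheres, 8.35, 8.34 and 8.35 in cultured cells, and 8.67, 8.64 and 8.59 in tissue. The 3 groups did not overlap, with tissue highest and neurospheres lowest. Dhcr7 fell in neurospheres against tissue by 0.71 on the log2 scale (SE 0.12, adjusted p = 0.000875), and its difference of -0.29 in cultured cells was under the fold threshold. Without neurosphere array 2 the neurosphere difference was -0.58, also under it.

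The regulators moved unevenly, with Srebf2 higher in both cultures than in tissue, and Scap and Insig2 higher in neurospheres than in both other groups. Srebf2 encodes the binding protein that acts mainly on sterol genes. It had values of 9.18, 8.89 and 8.75 in neurospheres, 9.14, 9.06 and 8.96 in cultured cells, and 6.86, 7.35 and 7.32 in tissue. Both cultures lay clear of tissue, by 1.76 ± 0.16 (SE, adjusted p = 1.44e-05) in neurospheres and 1.87 ± 0.13 (SE, adjusted p = 1.1e-06) in cultured cells. The second Srebf2 probe set gave 0.25 and 0.26 in the same comparisons and did not pass. Srebf1, whose product acts mainly on fatty acid genes, had values of 9.57, 9.82 and 9.65 in neurospheres, 9.69, 9.60 and 9.59 in cultured cells, and 10.36, 10.00 and 10.13 in tissue. All cultured arrays were below all tissue arrays, but the differences of -0.49 and -0.54 in neurospheres and cultured cells were under the fold threshold.

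Insig2, which holds SCAP in the endoplasmic reticulum, had the largest rise of the list in neurospheres against cultured cells. Its values were 11.53, 11.56 and 11.76 in neurospheres, 10.08, 10.15 and 10.14 in cultured cells, and 9.82, 9.93 and 10.05 in tissue. The neurosphere arrays lay well above the others, by 1.49 ± 0.09 (SE) over cultured cells (2.82-fold, adjusted p = 9.37e-06) and 1.69 ± 0.10 over tissue (3.21-fold, adjusted p = 1.11e-06). In cultured cells against tissue the difference of 0.19 did not pass. Of the other Insig2 probe sets, 1 passed as higher there (1.30), and the other gave -0.20 and did not pass. Whether Insig2 changed in cultured cells thus depended on the probe set. All 3 Insig2 probe sets passed as higher in neurospheres in both comparisons. Its relative Insig1, a direct target of the pathway, had values of 10.56, 9.81 and 10.42 in neurospheres, 9.87, 9.90 and 9.94 in cultured cells, and 10.05, 10.32 and 10.28 in tissue. Insig1 passed in no comparison, and its neurosphere arrays spanned those of both other groups. Without neurosphere array 2 it passed as higher in neurospheres than in cultured cells (0.59, adjusted p = 0.00299).

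Scap, the escort protein, had values of 10.90, 10.83 and 10.49 in neurospheres, 9.93, 9.97 and 9.90 in cultured cells, and 10.11, 10.11 and 10.12 in tissue. Neurospheres were highest in every array. Scap rose by 0.81 ± 0.12 (SE, adjusted p = 0.00093) over cultured cells and by 0.63 ± 0.12 (SE, adjusted p = 0.00142) over tissue, and the rise over tissue was under the fold threshold without neurosphere array 1 (0.54) or array 2 (0.58). Stard4, a carrier of cholesterol between membranes, rose in both cultures against tissue, by 0.61 in neurospheres (adjusted p = 0.0123) and 0.72 in cultured cells (adjusted p = 4.79e-05). Its neurosphere rise was 1.52-fold, close to the threshold, and was under it without neurosphere array 1 (0.48), neurosphere array 3 (0.52) or tissue array 3 (0.57).

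**Figure D3:**
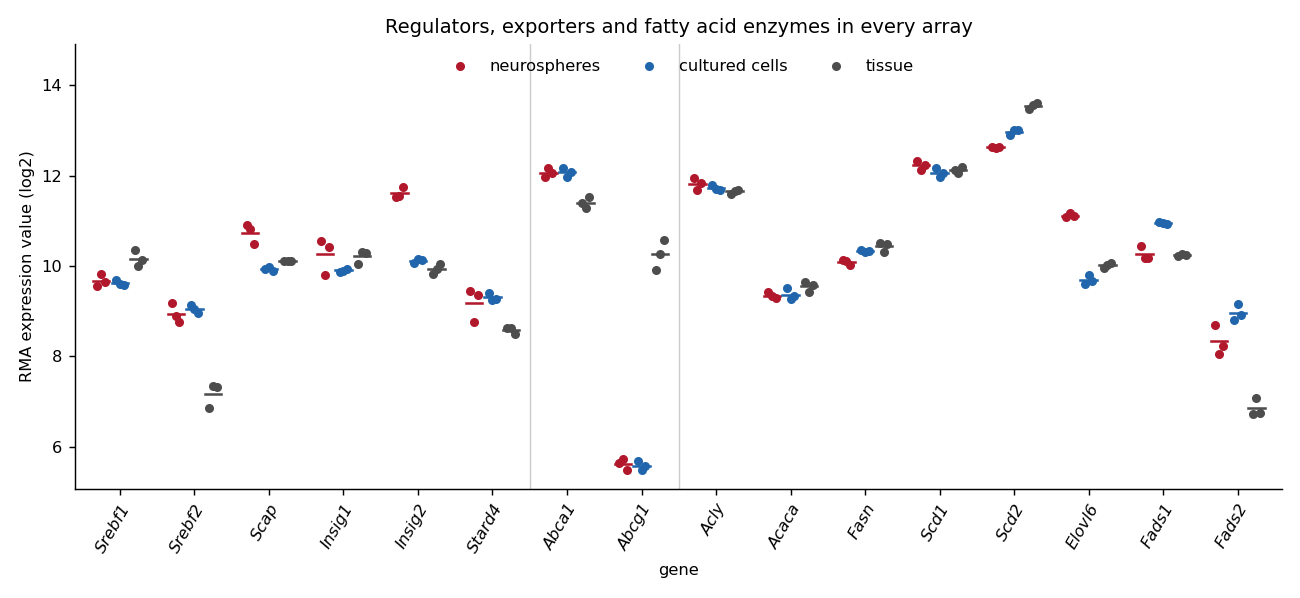
RMA expression value (log2) of the 6 measured regulators and carriers, the 2 exporters and the 8 fatty acid enzymes in each array, with neurospheres in red, cultured cells in blue and tissue in grey. Each point is 1 array and each short line the group mean, and vertical lines part the 3 sets. Insig2, Scap and Elovl6 stand highest in neurospheres, and Abcg1 is near 6 in both cultures and near 10 in tissue.

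The 2 sterol exporters moved in opposite directions. Abcg1, which passes cholesterol to lipoproteins, had values of 5.63, 5.73 and 5.48 in neurospheres, 5.68, 5.49 and 5.58 in cultured cells, and 9.92, 10.27 and 10.57 in tissue. The arrays of both cultures were far below every tissue array, with a log2 difference of -4.65 ± 0.16 (SE, adjusted p = 3.18e-08) in neurospheres and -4.68 ± 0.15 (SE, adjusted p = 4.01e-09) in cultured cells, or 25-fold and 25.6-fold lower. Abca1, which loads cholesterol onto apolipoprotein A-I, had values of 11.98, 12.17 and 12.07 in neurospheres, 12.17, 11.97 and 12.09 in cultured cells, and 11.39, 11.28 and 11.53 in tissue. Neither culture overlapped tissue, and Abca1 rose by 0.67 ± 0.10 (SE, adjusted p = 0.00034) in neurospheres and 0.68 ± 0.10 (SE, adjusted p = 0.000168) in cultured cells. The 2 cultures did not differ by a passing amount in either exporter (Abcg1 0.03, 95% interval -0.19 to 0.25, and Abca1 -0.01, 95% interval -0.22 to 0.20).

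The enzymes that make palmitate did not pass on their brightest probe sets, and dimmer probe sets of Acly and Acaca did. Acly, which releases acetyl-CoA from citrate, had values of 11.95, 11.69 and 11.84 in neurospheres, 11.79, 11.71 and 11.68 in cultured cells, and 11.60, 11.67 and 11.69 in tissue, and the groups overlapped. Other Acly probe sets passed as higher in both cultures (1.78 in neurospheres and 1.98 in cultured cells) and as lower in cultured cells (-0.59), so that its direction was not settled. Acaca, acetyl-CoA carboxylase and the committed step, had values of 9.42, 9.33 and 9.29 in neurospheres, 9.51, 9.26 and 9.34 in cultured cells, and 9.65, 9.42 and 9.58 in tissue. Acaca differed from tissue by -0.20 (95% interval -0.42 to 0.01) in neurospheres and -0.18 (-0.40 to 0.05) in cultured cells, while its second probe set passed as higher (0.88 in neurospheres and 0.93 in cultured cells). Fasn, fatty acid synthase, had values of 10.14, 10.11 and 10.02 in neurospheres, 10.35, 10.31 and 10.34 in cultured cells, and 10.52, 10.32 and 10.48 in tissue. The neurosphere arrays were the lowest in Fasn, with a difference of -0.35 against tissue (adjusted p = 0.00898) and -0.24 against cultured cells (adjusted p = 0.0419), both under the fold threshold.

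The desaturases and the elongase varied more. Elovl6, which lengthens palmitate to stearate, had values of 11.08, 11.17 and 11.10 in neurospheres, 9.60, 9.80 and 9.67 in cultured cells, and 9.96, 10.02 and 10.06 in tissue. Its neurosphere arrays agreed within 0.05 (SD) and lay above all others, by 1.43 ± 0.09 (SE) over cultured cells (2.69-fold, adjusted p = 8.95e-06) and 1.10 ± 0.08 over tissue (2.14-fold, adjusted p = 4.08e-06). Of its dimmer probe sets, 1 also passed as higher in neurospheres than in tissue (1.35), and the other did not pass there (-0.07). That last probe set passed as lower in cultured cells than in tissue (-0.80). Scd1, a stearoyl-CoA desaturase, had values of 12.32, 12.14 and 12.23 in neurospheres, 12.16, 11.98 and 12.07 in cultured cells, and 12.13, 12.07 and 12.20 in tissue, and all groups overlapped. A dimmer Scd1 probe set passed as higher than tissue in both cultures (0.67 in neurospheres and 0.97 in cultured cells). Scd2, the desaturase that predominates in neural tissue, had values of 12.65, 12.62 and 12.63 in neurospheres, 12.91, 13.01 and 13.02 in cultured cells, and 13.47, 13.58 and 13.61 in tissue. On this probe set the 3 groups were fully apart, and Scd2 fell in neurospheres against tissue by 0.92 (SE 0.08, adjusted p = 1.39e-05), whereas the difference of -0.57 in cultured cells (1.49-fold) was just under the fold threshold. A dimmer Scd2 probe set passed as higher in both cultures (1.76 in neurospheres and 2.13 in cultured cells) and the mean of its probe sets gave 0.072 in neurospheres, so that the direction of Scd2 was not settled.

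Fads2, which starts the desaturation of polyunsaturated fatty acids, had values of 8.70, 8.06 and 8.23 in neurospheres, 8.81, 9.16 and 8.93 in cultured cells, and 6.73, 7.08 and 6.75 in tissue. Tissue was lowest and cultured cells highest with no overlap, and Fads2 rose by 1.48 ± 0.17 (SE, adjusted p = 7.47e-05) in neurospheres and 2.11 ± 0.13 (SE, adjusted p = 3.16e-07) in cultured cells against tissue. A dimmer Fads2 probe set, marked as shared, gave 0.17 in neurospheres against tissue and did not pass. Fads1, the next desaturase of that route, had values of 10.45, 10.18 and 10.18 in neurospheres, 10.98, 10.95 and 10.94 in cultured cells, and 10.21, 10.27 and 10.24 in tissue. Fads1 passed as lower in neurospheres than in cultured cells (-0.69 ± 0.10 SE, adjusted p = 0.000878), as did Fads2 (-0.63 ± 0.17 SE, adjusted p = 0.0203). The Fads2 difference had an adjusted p of 0.0764 without cultured array 2, 0.0574 without cultured array 3, 0.0585 without neurosphere array 2 and 0.0682 without neurosphere array 3. Against tissue, Fads1 rose in cultured cells (0.72, adjusted p = 2.02e-05), while the neurosphere difference of 0.03 did not pass (95% interval -0.20 to 0.26). A dimmer Fads1 probe set passed in no comparison. It gave -0.37 in cultured cells and -0.57 in neurospheres against tissue, and -0.20 between the cultures.

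The 17 sterol enzymes were higher or lower together across the neurosphere arrays. In 16 of the 17, array 1 was the highest and array 2 the lowest of the 3, an order held by 19.7% of all genes, and in Hsd17b7 array 3 exceeded array 1 slightly. Averaged over the 17 enzymes and set against the tissue mean, the level was 1.10, 0.42 and 0.72 in neurosphere arrays 1, 2 and 3, against 0.78, 0.75 and 0.68 in the cultured arrays and -0.09, 0.06 and 0.03 in the tissue arrays. The gap between neurosphere arrays 1 and 2 ran from 0.28 in Mvk to 1.23 in Idi1. The median SD within the neurosphere group was 0.36 for the 17 enzymes, against 0.12 for all genes, whereas within cultured cells it was 0.08 for the enzymes, against 0.10 for all genes. Outside the sterol enzymes, 6 of 16 genes held the same order in neurospheres: Insig1, Stard4, Acly, Scd1, Scd2 and Fads2. The markers of dividing cells followed it too, with mean levels of 9.72, 9.21 and 9.43 in arrays 1, 2 and 3. They were not alone, since the mean levels of the fatty acid enzymes (10.84, 10.66 and 10.69) and of the regulators with Stard4 did so. Further lists described below did as well, for sterol synthesis and uptake (8.87, 8.67 and 8.72) and fatty acid synthesis and activation (8.61, 8.39 and 8.43). The exporters, the other marker lists, sterol handling and fatty acid oxidation did not. The 3′ excess of actin, which did not follow it, was 0.54, 0.74 and 0.83. The part of the dividing cells or of RNA integrity in this spread was not tested, and genes of 1 array are not independent of each other.

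**Figure D4:**
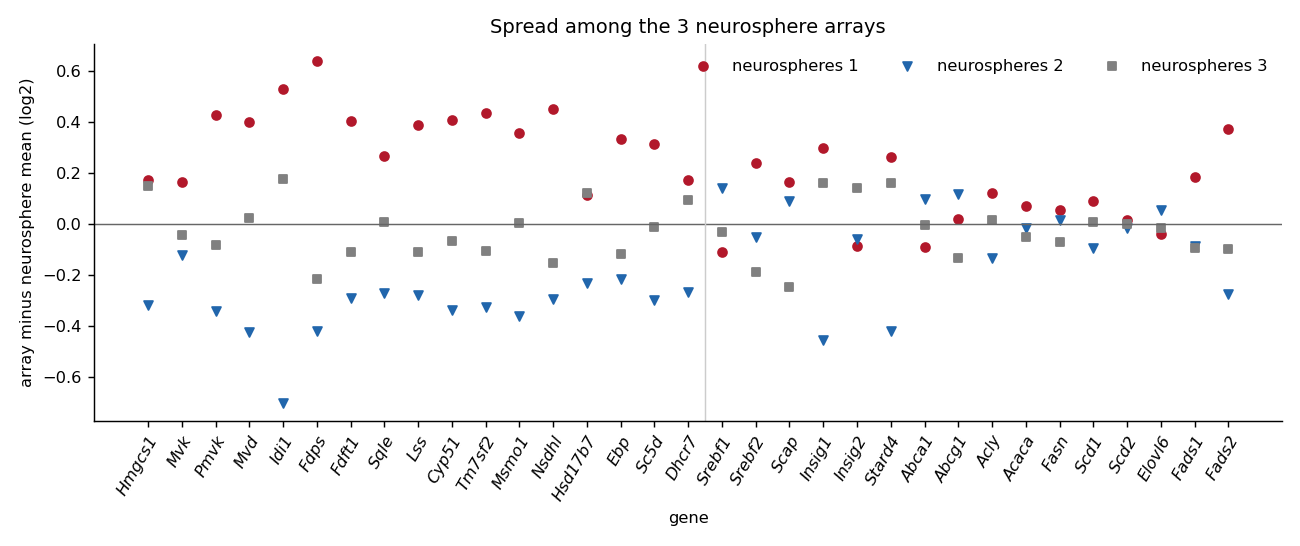
Log2 value of each neurosphere array minus the mean of the 3 neurosphere arrays, for each of the 33 genes, with array 1 as red circles, array 2 as blue triangles and array 3 as grey squares. The vertical line parts the 17 sterol enzymes, on the left, from the other genes. Among the sterol enzymes array 1 is above the mean and array 2 below it throughout, and the spread is narrow in Elovl6 and Scd2.

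Probe sets of 1 gene did not always move together. Of the 33 genes, 24 had more than 1 probe set, and in 7 of these every probe set passed the same way in neurospheres against tissue: Abca1, Abcg1, Cyp51, Insig2, Mvd, Scap and Stard4. In cultured cells against tissue the same held for 7 genes, namely Abca1, Abcg1, Cyp51, Fads2, Mvd, Mvk and Stard4, and in neurospheres against cultured cells for 4, namely Elovl6, Fads2, Insig2 and Scap. Probe sets passed in opposite directions (in a fit over all probe sets) for Hmgcs1, Sc5d and Scd2 in neurospheres against tissue, and for Acly, Hmgcs1, Lss and Sc5d in cultured cells against tissue. In Hmgcs1, 1 dimmer probe set was higher than tissue by 0.88 in neurospheres and 1.05 in cultured cells, while another differed from tissue by -0.72 in neurospheres and -0.71 in cultured cells. In Scd2 a probe set other than the brightest gave 1.76 in neurospheres and 2.13 in cultured cells, and in Sc5d another gave -1.29 and -1.22. The second Fdps probe set, which was dim on all arrays, gave 0.05 and -0.09. No gene had probe sets passing in opposite directions between neurospheres and cultured cells. Tissue RNA had the largest 3′ excess of actin, and its part in the disagreement between probe sets was not tested.

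**Figure D5:**
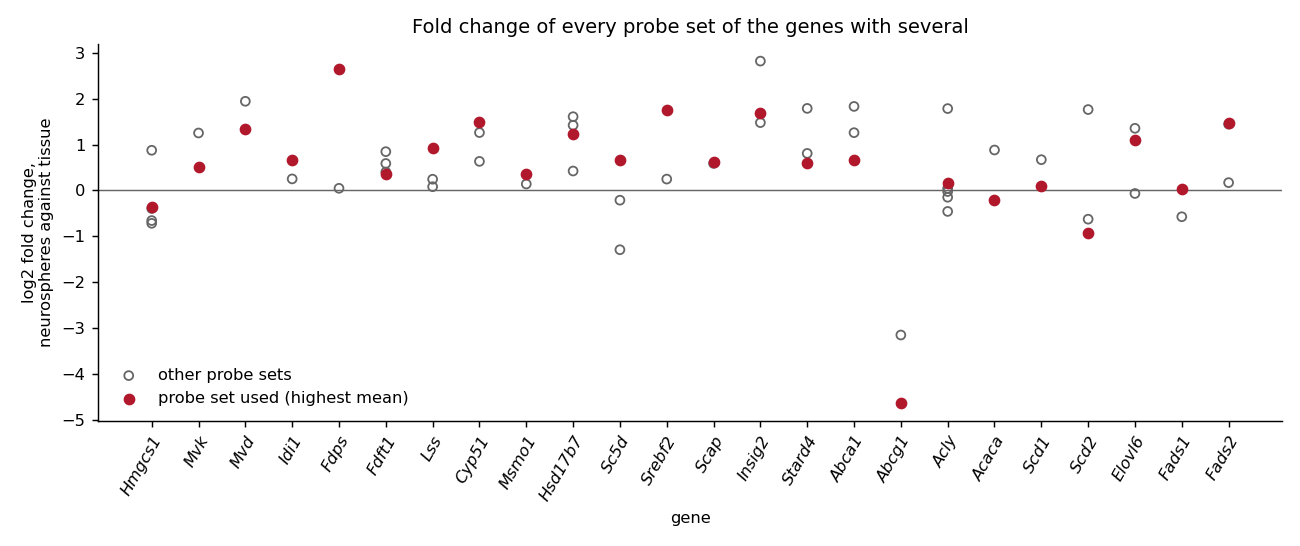
Log2 fold change in neurospheres against tissue of every probe set of the 24 genes that have more than 1. The filled red point is the probe set used for the gene, the brightest on average, and open points are the others. Hmgcs1, Sc5d and Scd2 have passing probe sets on both sides of 0, and both Abcg1 probe sets lie below -3.

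Genes next to the list in the same pathways were read in the same fits. Of 15 further genes of sterol synthesis and uptake, 10 were measured, and 2 rose and 2 fell in neurospheres against tissue, 4 rose and 2 fell in cultured cells against tissue, and 2 fell in neurospheres against cultured cells. In neurospheres these shares were 20% in each direction, beside 21.7% and 21% of all genes. In cultured cells they were 40% and 20%, beside 20.4% and 22%. The falls between the cultures were 20%, beside 8.91%. Tmem97, an endoplasmic reticulum sterol-binding protein, was higher by 1.55 in neurospheres and 1.63 in cultured cells, and the farnesyltransferase subunits Fntb (-1.58 and -1.52) and Fnta (-1.04 and -1.14) were lower. Between the cultures Scarb1, a lipoprotein receptor (-0.78), and Lbr, a second sterol C14 reductase (-0.62), were lower in neurospheres. Of 21 genes of sterol handling, 18 were measured, and 10 fell and 4 rose in neurospheres against tissue, while 10 fell and 1 rose in cultured cells against tissue. The falls were 55.6% of the 18 in each, beside 21% of all genes in neurospheres and 22% in cultured cells, and the rises in neurospheres were 22.2%, beside 21.7%. The rises in cultured cells were 5.56%, beside 20.4%. The caveolin gene Cav1 averaged 8.23 in neurospheres, 11.46 in cultured cells and 11.72 in tissue. Abcg4, an exporter related to Abcg1, differed from tissue by -2.84 in neurospheres and -2.54 in cultured cells, Cyp27a1, a sterol hydroxylase, by -2.78 and -2.23, and Gramd1b, a sterol carrier, by -2.77 and -3.16. In neurospheres against cultured cells 3 of the 18 rose and 1 fell, with Ch25h (2.07) and Cyp7b1 (1.4), both oxysterol enzymes, higher and Cav1 (-3.24) lower. These shares were 16.7% and 5.56%, beside 9% and 8.91% of all genes.

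Of 32 genes of fatty acid synthesis, elongation and activation, 30 were measured, and 14 fell and 5 rose in neurospheres, and 14 fell and 6 rose in cultured cells, against tissue. The falls were 46.7% in each, beside 21% of all genes in neurospheres and 22% in cultured cells, and no test was made of the difference. The rises were 16.7% in neurospheres and 20% in cultured cells, beside 21.7% and 20.4%. Fa2h, which hydroxylates the fatty acids of myelin galactolipids, had values of 5.67, 5.61 and 5.76 in neurospheres, 5.57, 5.53 and 5.37 in cultured cells, and 11.86, 11.65 and 11.45 in tissue. Acsl6, an acyl-CoA synthetase, fell by 5.99 in neurospheres and 5.44 in cultured cells, and Elovl7, an elongase, differed from tissue by -3.45 in neurospheres and -4.15 in cultured cells. Between the cultures 6 rose and 4 fell, with Elovl4 (1.96), an elongase of very long chains, and Acsl4 (1.5) higher in neurospheres and Hacd1 (-1.32) lower. These shares were 20% and 13.3%, beside 9% and 8.91% of all genes. Of 14 genes of fatty acid oxidation, 13 were measured, and 2 rose and 3 fell in neurospheres, and 1 rose and 4 fell in cultured cells, against tissue. In neurospheres these were 15.4% and 23.1%, beside 21.7% and 21% of all genes, and in cultured cells 7.69% and 30.8%, beside 20.4% and 22%. Ppargc1a, a coactivator of mitochondrial genes, differed from tissue by -5.11 in neurospheres and -6.15 in cultured cells, Cpt1c by 1.57 and 1.26, and Hadhb by -1.03 and -0.99. In neurospheres against cultured cells 2 of the 13 rose, or 15.4%, beside 9% of all genes. They were Ppargc1a at 1.04 and Cpt1a, the carnitine transferase of mitochondrial entry, at 0.93. All 5 measured markers of myelinating glia were lower in the same 2 comparisons against tissue, and their part in these falls was not tested.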

How the data were processed

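Total RNA from 9 samples was hybridised to Affymetrix mouse genome arrays, and the authors deposited log2 expression values made by RMA in Affymetrix Expression Console, whose steps remove background and set all arrays to 1 distribution. Versions are not given in the sources used here. Of 45101 probe sets, 34945 named 1 gene, 932 several, 9160 none here and 64 were controls. Each of the 18193 genes was represented by its brightest probe set, averaged over the 9 arrays. Gene symbols were updated through RefSeq, and 61 were kept as given. Groups came from the labels. Each pair of groups was fitted on its own in limma 3.58.1 (lmFit, then eBayes, 2-sided, under R 4.3.3), and p-values were adjusted over all genes after Benjamini-Hochberg. The test was checked on simulated data. The number of arrays limits the precision. The list and the other gene lists were chosen with earlier results of these data known. Per-array values are given for the 4 largest passing rises and falls per comparison, the regulators, rate-limiting enzymes and exporters, and genes whose probe sets passed in opposite directions, and of further lists the 3 largest passing changes are named. Mbp, Fabp4, Adipoq, Gramd1b and Cav1 values beyond that rule were chosen after their values were seen. The alternatives tried were other probe sets per gene, scalings, filters, fits, tests and thresholds, a replicate block, and each array left out.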

Additional observations from a re-analysis of the deposited data

How the results depend on the processing

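The number of arrays and the 1.5-fold limit bound what could pass. In neurospheres against tissue, no fold threshold gave 5 falls on the list, and a fold over 2 gave 10 rises, 1 fall and 4961 passing genes in all. In cultured cells against tissue, falls numbered 3 without shared probe sets, 5 with the second highest probe set, 3 with arrays centred on the brighter genes, 2 after quantile normalization and 7 with no fold threshold (11641 genes in all), and a fold over 2 gave 8 rises and 4901 genes. In neurospheres against cultured cells, falls numbered 1 with the mean of probe sets, 1 with the second highest, 7 with no fold threshold (6367 genes) and 0 with a fold over 2 (1618 genes). Leaving out each array gave 13 to 17 rises and 2 to 3 falls in neurospheres against tissue, 15 to 16 and 1 to 2 in cultured cells against tissue, and 3 to 6 and 2 to 4 in neurospheres against cultured cells, where the 6 came without neurosphere array 2. Centring on the brighter genes took Abca1 (0.58), Sc5d (0.56), Scap (0.53) and Stard4 (0.51) under the fold threshold in neurospheres against tissue, and the mean of probe sets did so for Mvk (-0.57) and Fads1 (-0.44) between the cultures.

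Directions reversed only with other probe sets. The mean of probe sets gave Sc5d -0.28 and Scd2 0.072 in neurospheres, and Sc5d -0.012 in cultured cells, against tissue. The second highest probe set gave Sc5d -1.29, Scd2 1.76 and Acaca 0.88 in neurospheres, and Sc5d -1.22, Lss -0.82, Acaca 0.93, Acly -0.59, Fads1 -0.37, Fdps -0.088, Scd1 0.97 and Scd2 2.13 in cultured cells; leaving out shared probe sets gave Lss -0.82 there. The causes were not tested. No direction reversed between neurospheres and cultured cells. Whether replicate numbers pair the arrays could not be decided from the correlations of their deviations from the group means. Same-numbered arrays correlated between -0.19 and 0.21, and differently numbered arrays between -0.17 and 0.21. With a replicate block the list gave the same counts: 16 rises and 3 falls in neurospheres and 15 and 1 in cultured cells against tissue, and 3 and 3 between the cultures.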
